A study of Mus musculus with 9 samples.

Results

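The serum amyloid A genes and the other major acute-phase genes of the mouse were examined in bulk liver RNA-seq, by symbol: Saa1, Saa2, Saa3, Saa4, Orm1, Orm2, Apcs, Lcn2, Fgl1 and Hp. They are 10 of the 56748 genes in the deposited count table, and all 10 passed the filter on low counts in each of the 3 comparisons. Saa2, Saa3, Orm2 and Lcn2 had 0 to 30 counts in the Control livers. In the comparisons with Control they passed it through the counts of the other group. They were picked with the counts of all 9 libraries in view, so their own levels are given here as a description and support nothing by themselves. The livers came from C57BL/6J mice (C57BL/6 in the sample labels), 3 to each of the groups labelled Control, DSS and Indirubin. The Control label gives water as the treatment, and these mice were gavaged with 200 µL of sterile water a day. DSS mice went through 3 cycles of 1.8% (w/v) dextran sulfate sodium, a polymer that injures the colon (1 week on DSS water and then 1 week off it per cycle), and were gavaged with the same volume of water as vehicle. Indirubin mice had the same DSS cycles and were gavaged daily with 1 g/kg of indirubin, a plant bisindole that activates the aryl hydrocarbon receptor, in 200 µL of water. The series text describes colitis induction for the mice as a whole while the Control label names water alone, so whether Control mice had any DSS could not be settled. The sources name each sample by a number and give no litter or cage, so p-values measure the spread between these 3 livers a group.

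The acute-phase response is the change in plasma proteins that the liver makes after injury or infection. Hepatocytes receive IL-6, which acts through STAT3, and IL-1 and TNF, which act through NF-kB and C/EBP factors, and they transcribe the positive acute-phase genes more and the genes of albumin and of transport proteins less. Serum amyloid A is the most inducible of these proteins in the mouse, and serum amyloid P takes the place that C-reactive protein has in humans. Colitis is known to bring on such a response in the liver.

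Library totals lay between 6514863 and 7944684 counts, of which genes of the mitochondrial genome took 71.6% to 91.3%, so 569044 to 2132208 counts per library fell on nuclear genes. The mitochondrial share was lowest in Indirubin-2 (71.6%), DSS-3 (72.4%) and Indirubin-3 (77.2%), and was 85.8% to 91.3% in the other 6 libraries. The 8 hepatocyte markers were detected in every library, at a summed level of 10709 to 17743 normalized CPM (the count scaled to library size) in Control, 8687 to 16369 in DSS and 6445 to 9851 in Indirubin. The library Indirubin-1 stood apart from the other Indirubin libraries, and its label was kept although its exposure could not be settled. Cyp1a1, a target gene of the aryl hydrocarbon receptor, had 0 counts in every Control and DSS library and in Indirubin-1, against 262 and 417 in Indirubin-2 and Indirubin-3. The acute-phase genes of Indirubin-1 lay at or near Control levels too, so the tests that use the Indirubin group are given with and without it. Because these levels helped to set it apart, calls of acute-phase genes without it partly follow from that choice and are given as a description.

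The 4 Saa genes lie together on chromosome 7 between 46361422 and 46403737, in coordinates of the deposited table, whose processing notes list GRCm39. From low to high coordinates the order is Saa3 (46361422 to 46365124), Saa4 (46377422 to 46382027), Saa1 (46389921 to 46392404) and Saa2 (46401214 to 46403737). Saa1 lies on the minus strand and Saa2 on the plus strand, start facing start across 8809 bases. Orm1 (chromosome 4, 63262797 to 63266400) and Orm2 (63280686 to 63284115) are neighbours with Orm3 between them. Hp (110301760 to 110305804) and Fgl1 (41644471 to 41668193) lie on chromosome 8, Apcs on chromosome 1 (172721528 to 172722608) and Lcn2 on chromosome 2 (32274645 to 32278264).

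RefSeq promoter sequence was at hand for 7 of the 10 genes, from the assembly GRCm38.p6, and the 250 bases before the start site are shown for 5 of them, because they compare the inducible Saa pair with Saa3 and with 2 genes outside the cluster. Capitals mark letters of a C/EBP motif (TTGCNNAA or, read from the other strand, TTNNGCAA), an NF-kB motif (GGGNNNNNCC or GGNNNNNCCC) or a TATA box (TATAAA), and no 2 motifs overlapped. Saa1 (chr7:46742981-46743230, minus strand), Saa2 (chr7:46751583-46751832, plus strand), Saa3 (chr7:46715677-46715926, minus strand), Orm2 (chr4:63362199-63362448, plus strand) and Lcn2 (chr2:32387740-32387989, minus strand) read, 5′ to 3′:
Saa1: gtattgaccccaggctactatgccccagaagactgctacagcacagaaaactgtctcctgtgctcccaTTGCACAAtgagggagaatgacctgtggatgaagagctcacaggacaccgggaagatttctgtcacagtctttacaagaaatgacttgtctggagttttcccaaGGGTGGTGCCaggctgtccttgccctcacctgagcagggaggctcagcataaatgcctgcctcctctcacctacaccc
Saa2: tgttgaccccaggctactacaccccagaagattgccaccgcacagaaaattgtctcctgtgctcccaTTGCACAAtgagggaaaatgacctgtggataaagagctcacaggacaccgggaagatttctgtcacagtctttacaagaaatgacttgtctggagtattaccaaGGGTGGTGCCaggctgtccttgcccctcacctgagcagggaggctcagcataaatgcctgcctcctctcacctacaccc
Saa3: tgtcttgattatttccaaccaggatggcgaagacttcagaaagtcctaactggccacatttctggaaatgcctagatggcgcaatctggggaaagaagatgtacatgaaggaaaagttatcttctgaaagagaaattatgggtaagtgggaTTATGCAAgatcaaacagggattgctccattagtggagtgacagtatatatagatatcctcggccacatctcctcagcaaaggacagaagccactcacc
Orm2: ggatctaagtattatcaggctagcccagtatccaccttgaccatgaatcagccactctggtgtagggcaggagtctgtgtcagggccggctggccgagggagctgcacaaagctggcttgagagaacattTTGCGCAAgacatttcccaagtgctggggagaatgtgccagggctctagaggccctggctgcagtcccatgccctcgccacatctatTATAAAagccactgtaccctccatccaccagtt
Lcn2: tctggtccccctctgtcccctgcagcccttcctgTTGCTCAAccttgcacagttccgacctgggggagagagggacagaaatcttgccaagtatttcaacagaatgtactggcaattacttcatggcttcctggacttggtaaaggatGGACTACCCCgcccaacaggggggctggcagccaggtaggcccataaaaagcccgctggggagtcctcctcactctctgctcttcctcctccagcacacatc
The Saa1 and Saa2 promoters were identical at 94.82% of 251 aligned positions, with the same C/EBP and NF-kB letters at nearly the same distance from the start. Saa3 was 52.2% identical to Saa1, which is near the value of unrelated pairs such as Saa1 and Lcn2 (53.47%). A C/EBP motif was in 6 of the 7 promoters (all but Apcs) and in 9.56% of 32851 mouse promoters of the same length. The NF-kB motif was in Saa1, Saa2, Saa4 and Lcn2, and in 45.8% of all promoters. The STAT motif TTCNNNGAA, searched on both strands, was in Apcs alone of the 7 and in 7.02% of all promoters. TATAAA, also searched as TTTATA, was in Orm2 alone of the 7 and in 12.4% of all. A match describes these letters and is not evidence of binding, and no match says only that the letters are not in this window.

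Together the 10 genes took 0.552%, 0.566% and 0.443% of the nuclear counts in the Control livers, 1.75%, 6.67% and 8.74% in the DSS livers and 0.535%, 5.49% and 8.07% in the Indirubin livers. The exact 95% binomial interval was 1.72% to 1.77% in DSS-1 and 0.518% to 0.552% in Indirubin-1, and covers counting error only. The DSS livers all lay above the Control livers, while Indirubin-1 sat between Control-3 and Control-1. Of the 4 libraries with the highest shares, DSS-3, Indirubin-2 and Indirubin-3 had the lowest mitochondrial shares of the 9, while DSS-2 had 87.7% mitochondrial counts, within the Control range; the part of the mitochondrial share was not tested. Haptoglobin alone was 3.16% of nuclear counts in Indirubin-3, where it ranked 4 among nuclear genes, against rank 28 to 33 in the Control livers and Indirubin-1. Saa1 ranked 7 to 13 in DSS-2, DSS-3, Indirubin-2 and Indirubin-3, 44 in DSS-1 and 1609 to 4803 in the Control livers and Indirubin-1. In whole liver RNA, a change in the cells that transcribe a gene and a change in the RNA each of them holds cannot be told apart.

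**Figure D1:**
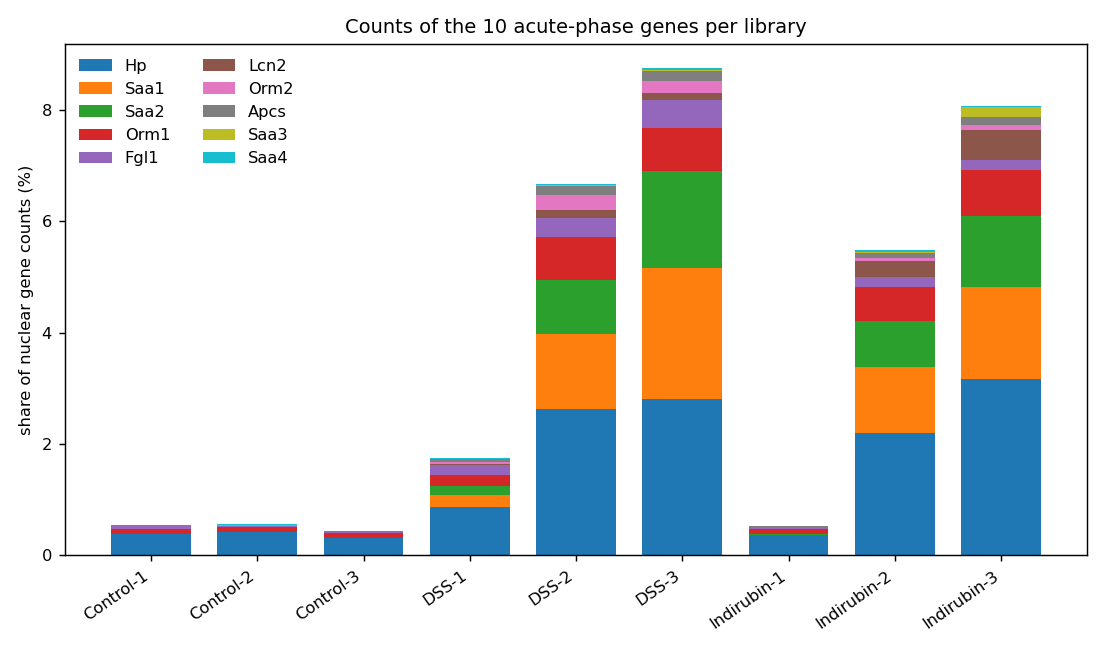
Counts of each of the 10 acute-phase genes as a percentage of all nuclear gene counts (vertical axis), stacked for each of the 9 livers (horizontal axis). The stack reaches 8.74% in DSS-3 and 8.07% in Indirubin-3 and stays under 1% in the Control livers and Indirubin-1, and Hp, Saa1 and Saa2 fill most of the tall stacks.

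Saa1 and Saa2 encode the serum amyloid A apolipoproteins that the liver secretes onto high-density lipoprotein, and they had the largest differences between DSS and Control of the 10 genes. Saa1 was at 9.53, 9.69 and 2.92 normalized CPM in the Control livers, 271, 1941 and 4562 in the DSS livers and 9.73, 1850.5 and 2528 in the Indirubin livers. Saa2 followed at 5.84, 5.11 and 0 in Control, 209, 1386 and 3382 in DSS and 7.16, 1304 and 1946 in Indirubin. For both genes the DSS livers were all far above the Control livers, DSS-1 was the lowest of its group, and Indirubin-1 lay just above the Control livers. DSS compared to Control differed by 8.25 on the log2 scale for Saa1 (standard error 0.93) and by 8.80 for Saa2 (1.13). Their reads are hard to separate: of the 2519 windows of 50 bases in Saa1 transcripts of GENCODE M21, 31.1% also occur in Saa2, so the split between them depends on the authors' counting, which is not given in the sources used here.

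Saa3, a serum amyloid A that macrophages and adipocytes also make outside the liver, was the lowest of the 10 genes in the DSS group. Its counts were 5, 9 and 0 in Control, 29, 50 and 335 in DSS and 14, 611 and 2938 in Indirubin, or 0.97, 1.59 and 0 normalized CPM, 3.44, 8.86 and 30.6, and 2.57, 50.1 and 254. Indirubin-2 and Indirubin-3 were above every DSS liver and Indirubin-1 was below every DSS liver. Of its 50-base windows, 0.346% occur in Saa1 and none in Saa2.

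Saa4, the serum amyloid A that is made constitutively, differed least between the groups. It was at 20.04, 26.95 and 13.9 normalized CPM in Control, 21.8, 43.8 and 57.1 in DSS and 8.26, 52.4 and 50.4 in Indirubin. DSS-1 lay within the Control range, so the DSS and Control livers overlapped, and Indirubin-1 was the lowest of all 9 livers. DSS compared to Control differed by 1.04 on the log2 scale (standard error 0.39). Saa-ps, a pseudogene within the cluster, had 4 counts in DSS-1 and 0 in the other libraries.

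Orm1 and Orm2 encode α1-acid glycoproteins, plasma lipocalins that bind drugs and lipids. Orm1 was abundant at rest, at 129, 135 and 112 normalized CPM in Control, and reached 257, 1101 and 1532 in DSS and 121, 970.4 and 1284 in Indirubin. Orm2 was near 0 at rest, with 0, 2.82 and 0.97 in Control, and was at 41.5, 369 and 419 in DSS and 6.79, 94.0 and 139 in Indirubin. All DSS livers exceeded all Control livers for both genes, and the log2 difference was 2.96 (standard error 0.51) for Orm1 against 7.74 (0.97) for Orm2. Orm3, the third gene of the locus, had 0, 16 and 8 counts in Control, 10, 62 and 270 in DSS and 10, 92 and 86 in Indirubin. Orm1 and Orm2 share 20.4% of their 726 windows of 50 bases.

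Hp, haptoglobin, which captures free haemoglobin, had the highest level per kb of the 10 genes in every liver. It was at 574, 725 and 439.9 normalized CPM in Control, 1130.3, 3750.3 and 5490.1 in DSS and 468, 3431 and 4837 in Indirubin. Every DSS liver lay above every Control liver, with a log2 difference of 2.60 (standard error 0.50). Apcs, serum amyloid P, the acute-phase pentraxin of the mouse, was at 14.6, 18.1 and 8.52 in Control, 74.6, 244 and 358 in DSS and 16.5, 134 and 233 in Indirubin. The DSS livers again did not overlap the Control livers, and the log2 difference was 4.06 (standard error 0.51).

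Lcn2, lipocalin 2, which sequesters bacterial siderophores and is also a neutrophil granule protein, was at 5.45, 0 and 0 normalized CPM in Control, 16.5, 211 and 241 in DSS and 3.31, 439 and 804 in Indirubin. Indirubin-2 and Indirubin-3 exceeded every DSS liver, and Indirubin-1 lay within the Control range. Fgl1, a fibrinogen-like protein that hepatocytes secrete and that binds the inhibitory receptor LAG-3 on T cells, was at 72.6, 62.2 and 36.3 in Control, 233, 496 and 969 in DSS and 45.5, 266 and 278 in Indirubin. For Fgl1 the order was the other way, since Indirubin-2 and Indirubin-3 lay below DSS-2 and DSS-3 and just above DSS-1. The log2 difference between DSS and Control was 6.40 (standard error 1.18) for Lcn2, where 2 Control livers had no count, and 3.33 (0.48) for Fgl1.

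**Figure D2:**
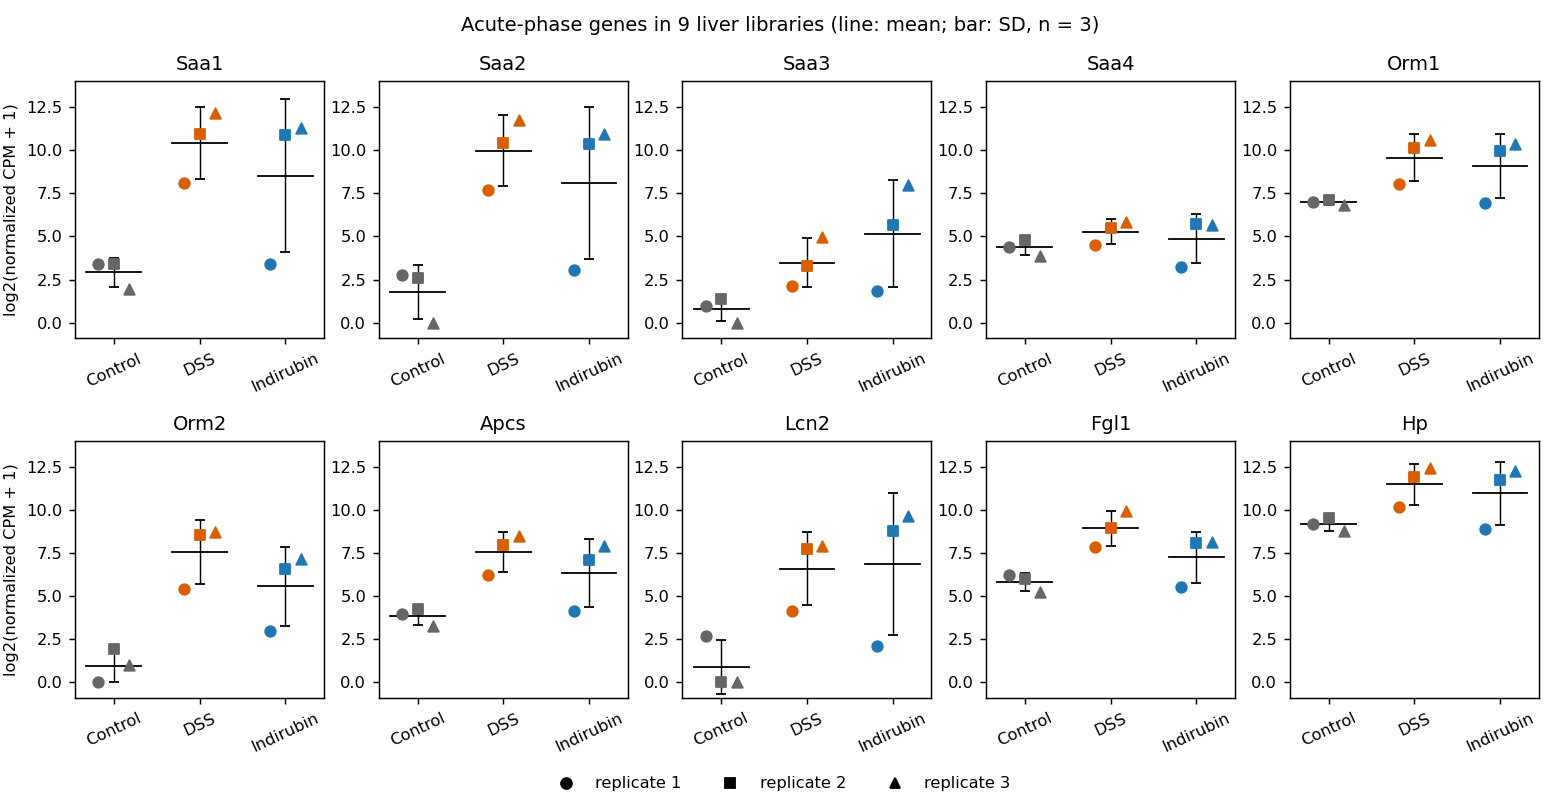
Levels of the 10 acute-phase genes as log2(normalized CPM + 1) (vertical axis) in the Control, DSS and Indirubin livers (horizontal axis); each point is 1 liver, its shape the replicate number, the line the mean and the bar the SD of 3. Indirubin-1 (circle) lies near the Control livers for every gene, and DSS-1 (circle) is the lowest DSS liver for every gene.

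Set per kb of gene length, the mean level in Control was 361 ± 88.8 CPM per kb for Hp (SD, n = 3) and 161 ± 15.2 for Orm1. Apcs (14.2 ± 5.01), Fgl1 (12.9 ± 4.21) and Saa4 (9.69 ± 3.12) followed with overlapping ranges, and the other 5 genes lay between 0.327 and 2.98. In DSS the order of the means was Hp at 2153 ± 1367 CPM per kb, Orm1 at 1243 ± 837, Saa1 at 911 ± 873, Saa2 at 659 ± 637, Orm2 at 357 ± 265, Apcs at 232 ± 147, Fgl1 at 128 ± 84.1, Lcn2 at 59.5 ± 46.5, Saa4 at 19.5 ± 8.52 and Saa3 at 5.49 ± 5.52. The ranges of all neighbours in this order overlapped, and the DSS livers differed up to 16.8-fold for a gene (Saa1), where the Indirubin livers differed up to 272-fold (Saa2). Within the livers the order of the first 4 genes was the same in DSS-1, DSS-2, DSS-3, Indirubin-2 and Indirubin-3. In Indirubin-2 and Indirubin-3, Lcn2 took the fifth place, ahead of Apcs and Orm2, whereas in the DSS livers it was eighth or ninth.

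DSS was compared with the group labelled water, whose DSS exposure could not be settled. All 10 genes had a higher mean in DSS, and 9 of the 10 had no overlap between the groups (all but Saa4), where 7.1% of the 7482 genes tested were higher without overlap. By edgeR's quasi-likelihood test 8 of the 10 passed an adjusted p of 0.05 (all but Saa3 and Saa4), where 0.214% of all genes tested passed as higher and 0.708% in either direction. These counts describe how the genes were chosen and nothing is read from them. The median log2 difference was 4.03 over the 10 genes and 0.01 over all genes tested. Saa2, Saa1 and Orm2 had the 3 largest log2 rises among all 7482 genes. When Control-2 or Control-3 was left out, 4 of the 10 passed, where 0.0584% and 0.0458% of all genes passed as higher, and without DSS-3 the count was 5, where 0.101% did.

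Comparing Indirubin with Control gave 0 genes of the 10 past the threshold, and 4 of the 10 (Saa1, Saa2, Saa3 and Orm2) did not overlap between the groups, where 12.2% of all genes tested were higher without overlap. The log2 differences were 7.66 for Saa1 (standard error 1.47), 8.23 for Saa2 (1.69), 6.84 for Saa3 (1.38), 7.83 for Lcn2 (1.80) and 5.97 for Orm2 (1.12). They were smaller for Apcs (3.25, standard error 0.74), Orm1 (2.70, 0.68), Hp (2.37, 0.70), Fgl1 (1.82, 0.60) and Saa4 (0.91, 0.57). At an unadjusted p of 0.05, 9 of the 10 were higher, where 7.45% of all genes were, and DESeq2's Wald test called 7 of the 10 and 1.81% of all genes as higher. Across all 8059 genes tested the quasi-likelihood test called 0.236%, and 0.062% as higher. Without Indirubin-1 the same test called 9 of the 10 (all but Saa4) and 1.49% of all genes as higher (4.78% in either direction), with log2 differences of 8.09 ± 0.51 (standard error) for Saa1, 7.25 ± 0.81 for Saa3 and 3.06 ± 0.28 for Orm1. That library was set apart partly by its low levels of these genes, so these calls are a description.

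Comparing Indirubin with DSS asks what indirubin added in mice that all had the DSS cycles. No gene of the 10 passed the test and none was free of overlap, where 10.5% of all genes were higher and 5.92% lower without overlap. Of the 9117 genes tested, 0% passed by edgeR's quasi-likelihood test, with 4.45% higher and 3.22% lower at an unadjusted p of 0.05. DESeq2's Wald test called 80 genes (0.877%) and none of the 10. Saa3 had the largest difference upward, 2.83 on the log2 scale (standard error 1.14), followed by Lcn2 at 1.41 (1.21). The largest downward were Orm2 at -1.79 (0.92), Fgl1 at -1.53 (0.69) and Apcs at -0.82 (0.77). Saa1 (-0.63, standard error 1.24), Saa2 (-0.61, 1.23), Orm1 (-0.28, 0.79), Hp (-0.25, 0.81) and Saa4 (-0.14, 0.60) differed by less than their standard errors.

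Leaving out Indirubin-1 moved every one of these differences upward. Saa3 was then at 3.30 (standard error 0.80) and Lcn2 at 1.88 (0.78), while Orm2 stayed at -1.36 (0.74) and Fgl1 at -1.16 (0.56). Orm1 (0.12, 0.63), Hp (0.15, 0.68) and Saa4 (0.22, 0.42) changed sign, and Saa1 (-0.15, 0.84) and Saa2 (-0.13, 0.83) were close to 0. Still 0 of the 10 passed, where 1.24% of 10817 genes did. Leaving out Indirubin-3 moved them the other way, with Saa3 at 0.89 (0.96), Lcn2 at 0.51 (1.24), Orm2 at -2.45 (1.06) and Fgl1 at -1.86 (0.82). Without DSS-3, Saa1 (0.39), Saa2 (0.43), Saa4 (0.17), Orm1 (0.21) and Hp (0.24) changed sign.

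**Figure D3:**
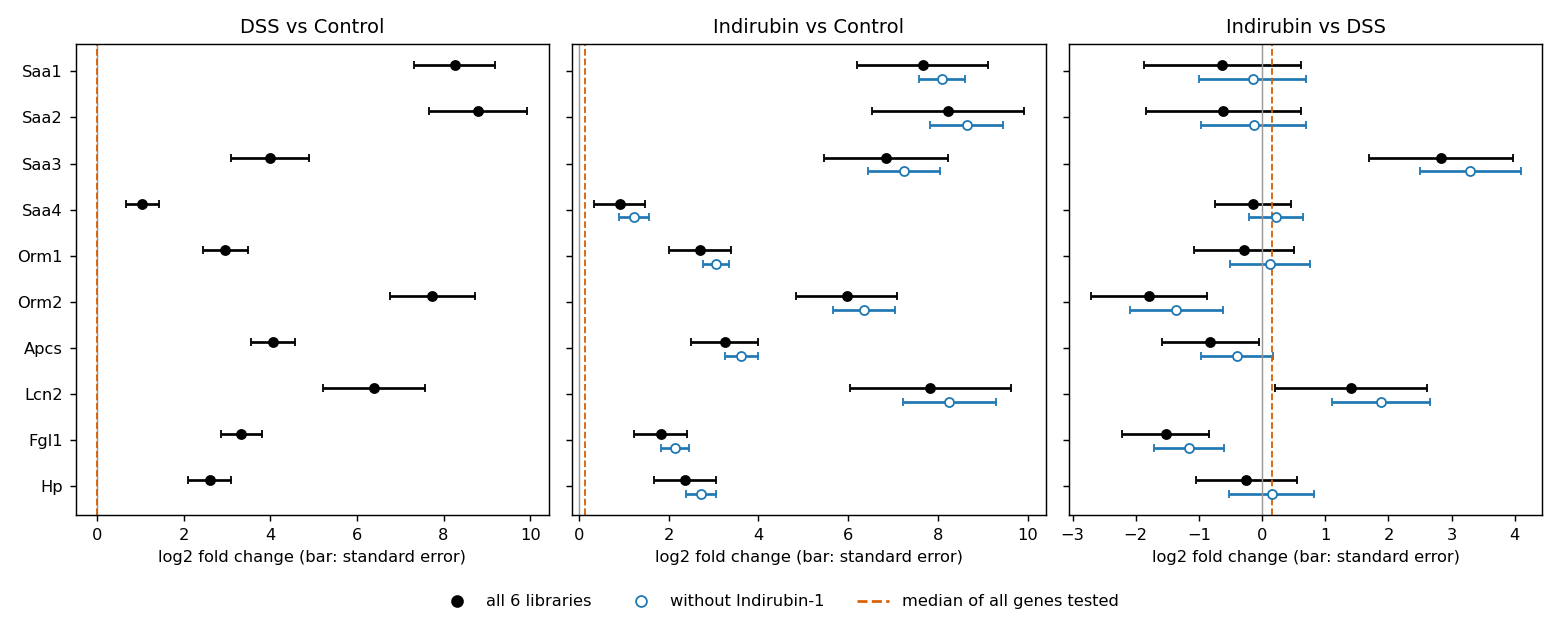
Log2 fold change (horizontal axis) of each of the 10 acute-phase genes in the 3 comparisons, with bars of 1 standard error; filled points use all 6 libraries, open points leave out Indirubin-1, and the dashed line is the median of all genes tested. In the comparison of Indirubin with DSS, Saa3 lies at 2.83 and Orm2 at -1.79, and most other bars cross 0.

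Ratios between the genes within a library need no scaling between libraries, and were chosen after the counts were seen. Orm1 stayed between 18.6 and 29.4 counts per 100 counts of Hp in all 9 livers, including those where both were at Control levels. Saa2 was at 70.5 to 77.1 counts per 100 of Saa1 in all 6 DSS and Indirubin livers, Indirubin-1 among them, and at 61.2, 52.7 and 0 in Control, where Saa1 itself had 12 to 55 counts. Other pairs separated the groups. Orm2 was at 16.1, 33.5 and 27.4 counts per 100 of Orm1 in DSS, at 5.60, 9.69 and 10.8 in Indirubin and at 0, 2.09 and 0.87 in Control, with no overlap between any groups. Apcs was at 6.60, 6.502 and 6.52 counts per 100 of Hp in DSS, 3.53, 3.90 and 4.83 in Indirubin and 2.54, 2.503 and 1.94 in Control, also without overlap. In these 2 ratios Indirubin-1 lay outside the Control range and with its group.

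Fgl1 per 100 counts of Hp was 20.6, 13.2 and 17.6 in DSS and 9.73, 7.75 and 5.74 in Indirubin, without overlap, with Control at 12.7, 8.58 and 8.25. Lcn2 per 100 counts of Hp was 1.46, 5.63 and 4.38 in DSS and 0.71, 12.8 and 16.6 in Indirubin, where Indirubin-1 was below the DSS livers and the other 2 above them, with Control at 0.95, 0 and 0. Against Saa1, Lcn2 was at 6.08, 10.9 and 5.28 per 100 in DSS and at 33.96, 23.7 and 31.8 in Indirubin, and at 57.1, 0 and 0 in Control. Saa3 was at 1.27, 0.46 and 0.67 per 100 of Saa1 in DSS and at 26.4, 2.71 and 10.04 in Indirubin, where the first rests on 14 and 53 counts. In Control it was at 10.2, 16.4 and 0, so the Control livers reached the Indirubin values in both pairs, on 12 to 55 counts of Saa1. These ratios use the counts that chose the genes and carry no test, and 3 against 3 livers could not give an exact two-sided permutation p under 0.1.

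**Figure D4:**
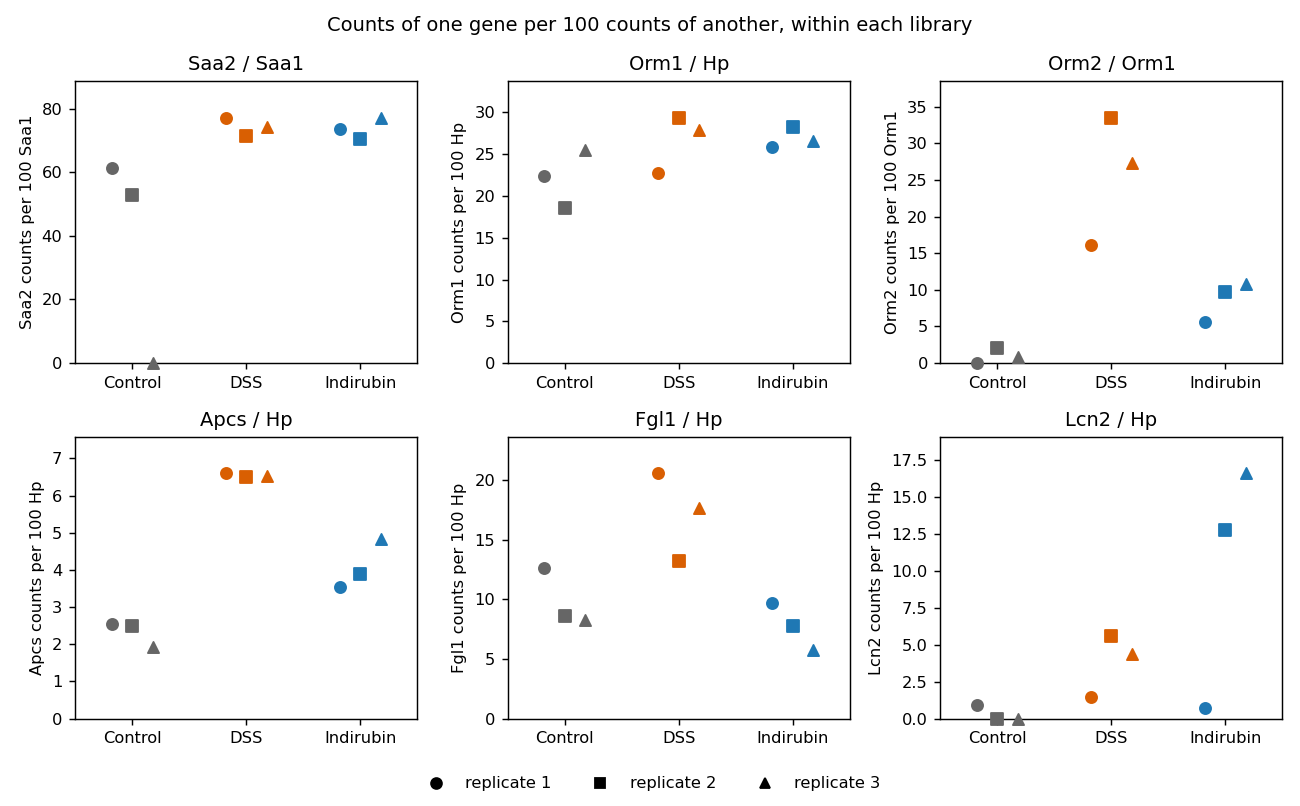
Counts of one acute-phase gene per 100 counts of another in the same library (vertical axis) for 6 pairs in the Control, DSS and Indirubin livers (horizontal axis); each point is 1 liver and its shape the replicate number. Apcs per 100 Hp sits at 6.502 to 6.60 in the DSS livers and at 3.53 to 4.83 in the Indirubin livers, and Orm1 per 100 Hp stays at 18.6 to 29.4 throughout.

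The other genes of the response were followed in 4 lists of 69 genes, chosen by their known role. Of 21 other positive acute-phase genes, 17 were tested in DSS against Control, 16 had a higher and 1 a lower mean, and 4 passed the test, where 0.214% of all genes passed as higher. These 4 rose. Mt1, a metallothionein that binds zinc, was at 111 ± 76.0 normalized CPM in DSS and 7.08 ± 1.81 in Control (SD, n = 3), a log2 rise of 3.99 (standard error 0.59, Benjamini-Hochberg adjusted p = 0.00612 in the edgeR quasi-likelihood test). Lrg1, a leucine-rich α2-glycoprotein, was at 154 ± 86.1 against 26.2 ± 6.56, a rise of 2.58 (0.42, adjusted p = 0.0120 by the same edgeR test). Hpx, hemopexin, which binds heme, was at 3882 ± 2739 against 626 ± 166, a rise of 2.65 (0.51, adjusted p = 0.0321 by the same edgeR test). Itih4, an inter-α-trypsin inhibitor chain named here because it was the fourth to pass, rose by 1.83 (0.39, adjusted p = 0.0494 by the same edgeR test). The list's median was 1.53, beside 0.01 over all genes. None of the 4 passed when any of the 3 Control livers was left out.

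The negative acute-phase genes were split in DSS against Control, where 6 of 12 were higher and 6 lower, none passed by edgeR's test, none had an unadjusted p under 0.05, and the median was -0.08. In Indirubin against DSS, 11 of the 12 had a lower mean, with a median of -0.93 beside 0.15 over all genes, but none passed, and 4 of the 12 had an unadjusted p under 0.05, where 3.22% of all genes did. Apoa2, an apolipoprotein of high-density lipoprotein, which serum amyloid A also rides on, was at 326 ± 233 normalized CPM in Indirubin against 952 ± 319 in DSS, at -1.54 (standard error 0.57, adjusted p = 0.529 by edgeR). Apom, which carries sphingosine 1-phosphate on the same particles, was at -1.41 (0.46, adjusted p = 0.473 by edgeR), and Pon1, their paraoxonase, at -1.38 (0.50, adjusted p = 0.513 by edgeR). None of the 3 overlapped between the groups, where 5.92% of all genes were lower without overlap. Without Indirubin-1, Apoa2 was at -2.41 (0.48, adjusted p = 0.0307 by edgeR), Apom at -1.68 (0.49, 0.172) and Pon1 at -1.70 (0.52, 0.204), and the list's median was -1.08. The summed hepatocyte markers, 3 of which (Alb, Apoa1 and Ttr) are also in this list, were lowest in Indirubin-2 and Indirubin-3 of the 9 livers, while Indirubin-1 (9851) lay above DSS-1 (8687). Alb made most of the sum, at 4568 of 6445 in Indirubin-2, and not all of the markers were low there, since Tat was highest in Indirubin-2 and Indirubin-3 (276 and 266 against 175 at most elsewhere) and Cps1 in Indirubin-2 (67.2). The part of these markers was not tested. Against Control, 10 of the 12 were lower in Indirubin, 7 with an unadjusted p under 0.05, where 6.38% of all genes were lower at that p, and none passed. Igf1 was at -1.31 (0.38, adjusted p = 0.152 by edgeR), Apoa2 at -1.81 (0.52, 0.152) and Ttr, transthyretin, at -1.57 (0.49, 0.175). Without Indirubin-1 all 3 fell against Control, Igf1 by 1.68 (0.32, adjusted p = 0.0111 by edgeR), Apoa2 by 2.71 (0.34, 0.000822) and Ttr by 2.33 (0.34, 0.00220).

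With all 6 libraries, 18 of the other positive genes were tested in Indirubin against Control, 15 with a higher and 3 with a lower mean and a median of 1.59, and none passed, while 10 were higher at an unadjusted p under 0.05, where 7.45% of all genes were. Without Indirubin-1, 15 of 21 other positive genes were called higher against Control and none lower, where 1.49% of all genes were called higher, and of the 12 negative genes 6 were called lower and 1 higher, where 3.29% of all genes were called lower. Serpina3n, a protease inhibitor, was then at 4.68 (standard error 0.53, adjusted p = 0.00040 by edgeR) and Lbp, which binds bacterial lipopolysaccharide, at 3.05 (0.43, adjusted p = 0.00183 by edgeR), from 4.29 (0.95, adjusted p = 0.0845) and 2.73 (0.67, adjusted p = 0.107) with all 6 libraries. Against DSS, Mt2 was then called higher and Apoa2 and Serpina6 lower, where 0.536% of all genes were called higher and 0.703% lower. Mt2 was near the floor in the DSS livers, with 0, 0 and 16 counts. Serpina6, corticosteroid-binding globulin, named after its values were seen, had 90, 100 and 314 counts in DSS and 74, 7 and 4 in Indirubin.

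Hamp, hepcidin, the hormone that limits iron export and an IL-6 target, was lowest in Indirubin. It was at 66.0, 77.3 and 14.1 normalized CPM in Control, 33.7, 110 and 101 in DSS and 12.3, 20.2 and 6.999 in Indirubin. No Indirubin liver reached the lowest DSS liver, with a log2 difference of -2.63 (standard error 0.55, adjusted p = 0.352 by edgeR) and of -2.69 (0.62, 0.0656) without Indirubin-1. Crp, C-reactive protein, was at 35.3 ± 5.73 against 76.8 ± 36.5, a difference of -1.12 (0.43, adjusted p = 0.538 by edgeR, and 0.352 without Indirubin-1), also without overlap, where 5.92% of all genes were lower without overlap. In the positive list, 10 of 20 tested genes were higher and 10 lower in Indirubin against DSS, with a median of -0.07. Without Indirubin-1 the split was 14 higher and 7 lower of 21, with a median of 0.24. Mt2 (4.68, adjusted p = 0.446 by edgeR), Cd14 (3.16, 0.609) and Il1rn (1.98, 0.609) had the smallest p among the higher ones, each with overlapping groups. Without Indirubin-1 Mt2 was at 5.14 (adjusted p = 0.0293 by edgeR), Cd14 at 3.60 (0.264) and Il1rn at 2.39 (0.153). In the DSS livers Mt2 had 0, 0 and 16 counts and Cd14 0, 0 and 31, so their fitted changes are no measure of size.

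**Figure D5:**
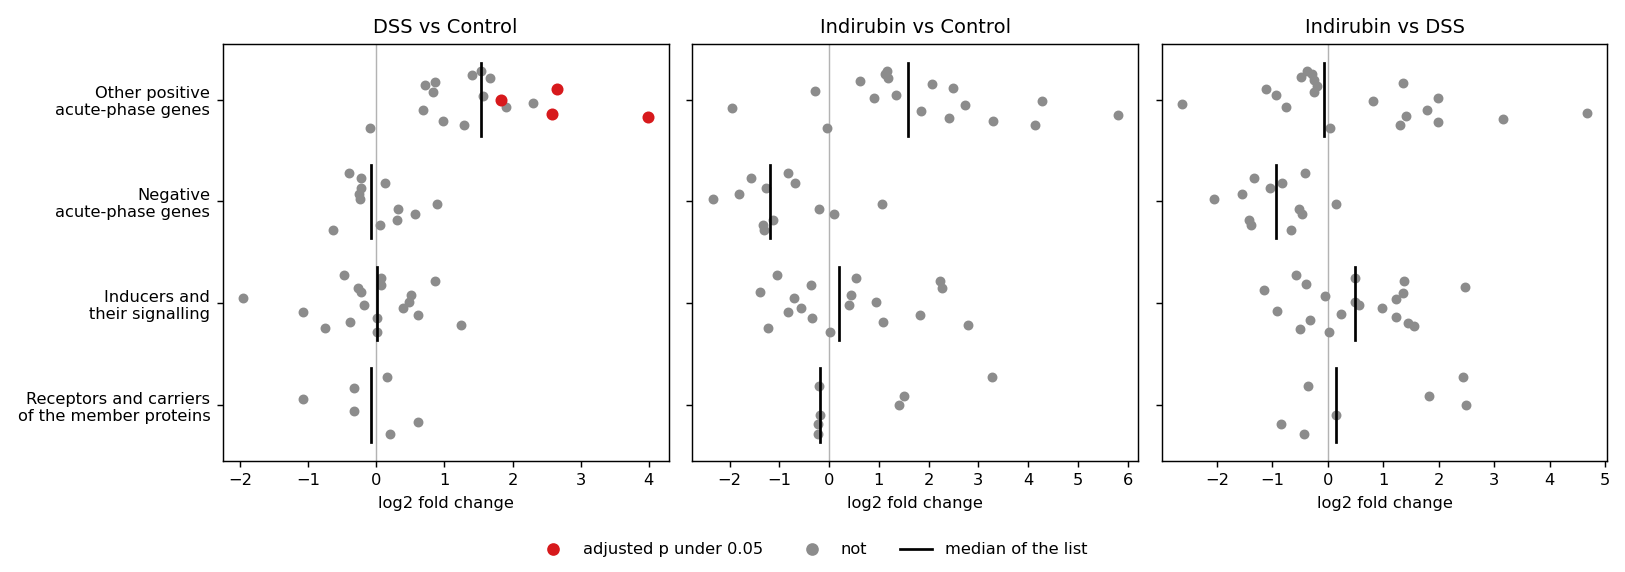
Log2 fold change (horizontal axis) of each tested gene in the 4 lists of related genes (rows) for the 3 comparisons; bars mark the list median and larger coloured points the genes with an adjusted p under 0.05. The 4 coloured points are Mt1, Lrg1, Hpx and Itih4 in DSS against Control, and the negative acute-phase genes have a median of -0.93 in Indirubin against DSS.

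Of the inducing cytokines, Il6, Il22 and Tnf were barely detected. Il6 had 6 counts in Indirubin-2 and 0 elsewhere, Il22 had 0 in every library and Tnf 3 at most. Il1b had 7 to 25 counts in Control, 0 to 60 in DSS and 20 to 82 in Indirubin, and Il1a had 7 to 34, 8 to 27 and 1 to 48. Of 24 inducers, receptors and signalling genes, none passed in any comparison with all 6 libraries, and the medians were 0.01 in DSS against Control, 0.21 in Indirubin against Control and 0.49 in Indirubin against DSS. Cebpb, one of the C/EBP factors, was at 17.3, 20.6 and 21.3 normalized CPM in Indirubin, with 10.3, 1.06 and 10.1 in DSS and 8.17, 10.04 and 10.5 in Control. Its Indirubin livers were above all others, Indirubin-1 included, with a difference of 1.45 from DSS (standard error 0.62, adjusted p = 0.618 by edgeR) and 1.07 from Control (0.36, adjusted p = 0.195 by edgeR). Cebpd differed by 2.79 from Control (0.91, adjusted p = 0.188 by edgeR). The IL-1 receptor genes differed from DSS by 2.48 for Il1r1 (0.82, adjusted p = 0.481 by edgeR) and -1.15 for Il1rap, the accessory chain (0.45, adjusted p = 0.571 by edgeR). Il6ra, the IL-6 receptor, differed from Control by 2.22 (0.86, adjusted p = 0.271 by edgeR), and Il1rap by -1.38 (0.50, 0.238). Without Indirubin-1 none of the list passed either, with Cebpb at 1.44 from DSS (adjusted p = 0.488 by edgeR) and 1.02 from Control (0.132), Cebpd at 3.08 from Control (0.0671), Il1r1 at 2.84 from DSS (0.111), Il1rap at -1.21 from DSS (0.393) and -1.48 from Control (0.163), and Il6ra at 2.33 from Control (0.199). The medians were then 0.53 against DSS and 0.18 against Control. Jak2, the kinase below cytokine receptors, was the only gene of this list with an unadjusted p under 0.05 in DSS against Control, at -1.95 (0.84, adjusted p = 0.613 by edgeR). It was at 3.11, 2.47 and 13.6 normalized CPM in Control and 2.02, 0.71 and 2.10 in DSS, so the difference rests on Control-3, without which the log2 fold change of Jak2, DSS vs Control, was -0.77 (standard error 1.14).

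Of 12 receptors and carriers of the acute-phase proteins, 6 or 7 could be tested with all libraries, among them Lrp1 at 37.2 to 95.7 normalized CPM and Asgr1 at 38.2 to 110 over the 9 livers. None passed in any comparison by edgeR's test. Cd36, a scavenger receptor that takes up serum amyloid A, was at 7.90, 8.77 and 14.4 normalized CPM in Indirubin, 3.08, 1.06 and 4.48 in DSS and 6.81, 2.82 and 1.46 in Control. All Indirubin livers were above the others, with a difference of 1.82 from DSS (standard error 0.59, adjusted p = 0.473 by edgeR) and 1.502 from Control (0.58, adjusted p = 0.269 by edgeR). Cd163, the macrophage receptor for haptoglobin-haemoglobin complexes, differed from DSS by 2.498 (1.03, adjusted p = 0.604 by edgeR), and Fpr2, a receptor that serum amyloid A activates, differed from Control by 3.28 (1.04, adjusted p = 0.184 by edgeR). Without Indirubin-1 none passed either, with Cd36 at 1.89 from DSS (adjusted p = 0.290 by edgeR) and 1.52 from Control (0.226), Cd163 at 2.89 from DSS (0.260) and Fpr2 at 3.43 from Control (0.112). Lag3, whose protein binds FGL1, had 2 and 7 counts in 2 Control livers and 0 in the other libraries.

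Some of these proteins are also made by other cells, whose markers were summed in each liver. The 12 neutrophil markers summed to 1.17 to 3.65 normalized CPM in Control, 11.5 to 19.8 in DSS and 30.3, 254 and 93.8 in Indirubin-1, Indirubin-2 and Indirubin-3, and Lcn2 was highest in the last 2. Of the 12, 9 or 10 had no count in the Control livers, 6 to 10 in the DSS livers and 1 to 4 in the Indirubin livers. S100a8 and S100a9 made most of the sum, while Cxcr2 had no count in any library, Ly6g 6 counts in Indirubin-2 and 0 elsewhere, and Mpo none in Control, DSS and Indirubin-1. In Indirubin-1, Lcn2 was lower than in every DSS liver, on 18 counts, and the marker sum was higher than in every DSS liver. The part of neutrophils in the Lcn2 level was not tested. For Saa3, the 11 Kupffer cell and macrophage markers, all detected in every library, summed to 114 to 195 in Control, 155 to 176 in DSS and 175 to 276 in Indirubin, with overlap between all groups. Marco, a scavenger receptor of macrophages, is a gene of that list named after its values were seen. It was at 2.14 to 2.99 in Control, 9.01 to 19.8 in DSS and 8.63, 31.1 and 71.97 in Indirubin. Saa3 had the same 2 highest livers, Indirubin-2 and Indirubin-3, and so had Timd4, C1qa, C1qb and C1qc of that list. Adgre1, Clec4f, Cd5l, Vsig4, Csf1r and Cd68 of the list did not. Adgre1 (10.6) and Cd5l (70.5) were highest in DSS-3, and Clec4f was lowest in Indirubin-3 (14.2). The 5 monocyte markers summed to 11.8 to 21.7 in Control, 12.9 to 13.4 in DSS and 16.9, 56.5 and 40.8 in Indirubin, with 3, 2 or 3, and 0 or 1 of them at 0. Plac8 made most of this sum in every library, with 517 of 689 counts in Indirubin-2 and 416 of 472 in Indirubin-3. Ly6c2 had no count in Indirubin-1 and Indirubin-3, and Chil3 had counts in the Indirubin livers alone (3, 82 and 33). The 5 adipocyte markers summed to 6.23 to 9.26, 3.01 to 14.5 and 11.4 to 49.8, also with overlap between DSS and both other groups, and in Indirubin-2 and Indirubin-3 nearly all of it was Fabp4 (523 of 523 counts in Indirubin-2 and 565 of 576 in Indirubin-3). Adipoq was at 0 in every library, and Plin1, Cfd and Lep at 0 in most, with 15 counts at most. The part of these cells was not tested. The 13 pancreatic acinar markers summed to 10.3 in Indirubin-1 but to 1656 and 1623 in Indirubin-2 and Indirubin-3, against 18.5 at most elsewhere, so these markers were high in the same 2 Indirubin libraries as the acute-phase genes, and their part was not tested.

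For the 6 acute-phase genes with 10 or more counts in every library, the genes with the most similar profile over the 9 libraries were sought among 3048 genes, by the root mean square difference of centred log2 levels. Hp was closest to Hpx (0.14 on the log2 scale), Orm1 (0.20) and Lrg1 (0.35), and Orm1 to Hp (0.20), Hpx (0.23) and Lrg1 (0.46). Fgl1 was closest to Lrg1 (0.49), Hp (0.56) and Apcs (0.57), and Apcs to Orm1 (0.54), Fgl1 (0.57) and Hp (0.61). Saa4 was closest to Itih3 (0.30), Fgb (0.30) and Kng2 (0.32), genes of an inter-α-trypsin inhibitor chain, fibrinogen and kininogen. For Saa1 they were Mt1 at 1.76, Apcs at 2.09 and Serpina3n at 2.45, where Saa2 was no candidate because it had no count in Control-3. The libraries share their depth and scaling across all genes, so these values describe the profiles and carry no test.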

How the data were processed

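RNA from 9 mouse livers (3 each of Control, DSS and Indirubin) was sequenced on a DNBSEQ platform from 400 ng per library. The authors deposited whole-number counts per gene without normalization, which were used for all results. The authors' FPKM columns beside them served only to look at the file, and the gene lengths served for levels per kb. The authors' fold changes and p-values and their 3 gene lists were not used. GRCm39 is listed in the submitters' processing notes; aligner, counter and annotation are not given in the sources used here.

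Normalized CPM came from one TMM scaling over all 9 libraries. Each comparison used its 6 libraries in edgeR 4.0.16 (R 4.3.3, limma 3.58.1): TMM, filterByExpr at its defaults (minimum count 10, minimum total 15), glmQLFit and glmQLFTest, Benjamini-Hochberg adjustment over all genes tested, threshold 0.05. Library totals were 6514863 to 7944684 counts, and 1 count was worth 0.0819 to 0.244 normalized CPM. Shares have exact (Clopper-Pearson) intervals. Alternatives were DESeq2 1.42.0 size factors or Wald test, library size alone, no filter, at least 10 counts in every library, all 9 libraries in 1 fit, the replicate number as a block, no mitochondrial genes, and each library left out in turn; leaving out Indirubin-1 and DSS-1 together was added after seeing the data. The fits were tested on simulated data. The members, lists and tests were chosen with earlier results of these data known. From each list up to 3 genes each way with the smallest p are named, narrowed after values were seen to those with an unadjusted p under 0.05. The result of 1 listed gene is not reported here. Promoters were from RefSeq, shared windows from GENCODE M21 transcripts (a GRCm38 annotation, not the authors'), aligned with Biopython 1.88; figures used matplotlib 3.10.9 in Python 3.11.15.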

Additional observations from a re-analysis of the deposited data

How the results depend on the processing

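The direction of the 10 genes held in DSS against Control and in Indirubin against Control under every alternative run, and counts of calls moved widely; the cause was not tested. In DSS against Control, the 8 calls among the 10 became 5 with at least 10 counts in every library (where 6 of the 10 were tested), 5 with all 9 libraries in 1 fit and 5 with the replicate block, and 4 to 9 with 1 library left out. All-gene calls (53) became 19 with library size alone, 143 with DESeq2's Wald test, 125 without a filter, 84 with at least 10 counts, 11 with all 9 libraries and 30 with the block, and 12 to 64 with 1 library left out, while related-gene calls (4) became 10, 10 and 9 with the Wald test, no filter and at least 10 counts, 0 with all 9 libraries, 2 with the block, and 0 to 9 with 1 library left out. In Indirubin against Control, 0 of the 10 became 9 with library size alone, 7 with the Wald test, 9 without a filter, 3 with at least 10 counts, 6 with all 9 libraries, 1 with the block, and 0 to 9 with 1 library left out (9 without Indirubin-1). All-gene calls (19) became 266, 316, 379, 72, 56 and 49 in that order of settings, and 1 to 465 with 1 library left out (465 without Indirubin-1), and related-gene calls (0) became 12, 14, 16, 3 and 2 in the first 5, and 0 to 22. In Indirubin against DSS, 0 of the 10 became 2 without a filter and stayed at 0 with any 1 library left out; all-gene calls (0) became 2 with library size alone, 80 with the Wald test, 156 without a filter, 2 with at least 10 counts, 4 with all 9 libraries, 3 with the replicate block, 102 without Indirubin-1 and DSS-1, and 0 to 134 with 1 library left out (134 without Indirubin-1), and related-gene calls (0) became 1 with the Wald test, 6 without a filter, 3 without Indirubin-1 and DSS-1, and 0 to 4. Library size alone moved the median of all genes to 0.70, 1.10 and 0.43 in the 3 comparisons in the order given, from 0.01, 0.13 and 0.15, and the medians of the 10 genes to 4.81, 5.78 and -0.03, and the split of all-gene calls to 14 higher and 5 lower from 16 and 37 in DSS against Control, and to 249 and 17 from 5 and 14 in Indirubin against Control. With few nuclear counts per library, the Control levels of Saa2, Saa3, Orm2 and Lcn2 rest on 0 to 30 counts: Lcn2 without Control-1 is compared with 2 libraries at 0, so its fitted change there is no measure of size. The sources give no pairing of same-numbered livers, and their deviations from the group means were hardly correlated across genes (-0.0248 to 0.0324). These correlations cannot settle whether the livers were paired, so the block is given only as an alternative.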
